A study of Mus musculus with 12 samples.

Results

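The genes described here make fatty acids and build them into triglyceride. They are Srebf1 and Thrsp, which regulate the pathway, Acly and Acss2, which supply acetyl-CoA, Acaca and Fasn, which build the fatty acid chain, Me1, which supplies NADPH, Elovl6 and Scd1, which lengthen and desaturate the chain, and Dgat2, which completes triglyceride. These 10 symbols each matched 1 Ensembl identifier among the 52636 of the count table, and all 10 passed the filter on low counts that left 16674 genes for testing. The libraries came from whole paw joints, 1 animal each, with 12 mice in 3 groups of 4. The first group received serum of K/BxN mice, whose antibodies cause joint inflammation, and 6F2, an agonistic antibody against the myeloid inhibitory receptor SIRPa (anti-SIRPa arthritis). The second received the same serum and the control antibody anti-gp120 (control-antibody arthritis). The third was naive and received anti-gp120 without serum. Both serum groups were sampled at day 7. The sources used here do not give strain, sex or age.

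De novo lipogenesis turns citrate and acetate into acetyl-CoA, carboxylates this to malonyl-CoA, and joins these units into palmitate at the expense of NADPH. In mice the pathway is strongest in liver, adipose tissue and the sebaceous glands of skin, and it is driven by insulin and sterol signals through the lipogenic SREBP factor and by the carbohydrate-responsive factor ChREBP. Whole paws hold fat cells, skin, muscle, marrow and joint tissue together. In such bulk samples fewer cells of a type and less RNA per cell cannot be told apart.

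Total counts were 13791454 to 17597920 in anti-SIRPa arthritis, 6893969 to 13416033 in control-antibody arthritis and 14289363 to 16205593 in naive mice, with control-antibody mouse 2 lowest. The joint markers Prg4, Comp, Acan and Col2a1 together reached 5917 to 10703 CPM (counts scaled to a common library size) in the 12 libraries. Skin content differed widely between mice of a group: the 15 epidermal markers summed to 19269 CPM in anti-SIRPa mouse 4 and to 49.8 to 352 CPM in the other 3 of its group, and to 47.4 CPM in naive mouse 4 and 3858 to 13943 CPM in the other 3 naive mice. Control-antibody mouse 1 stood apart from its group. Its 14 macrophage markers summed to 697 CPM, against 1449 to 1590 CPM in the other 3 and 729 to 766 CPM in naive mice. Results that depend on this library are also given without it.

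The stretches of genome before the RefSeq transcript start of 4 of these genes are shown. Thrsp was the member called between groups, and Elovl6, Fasn and Acly were the 3 members with the highest correlations with epidermis markers across mice. They are given as descriptions, and no test of expression rests on them. RefSeq windows of 250 bases before the transcript start (GRCm38.p6) were found for 8 of the 10 members. Capitals mark the CCAAT box, searched as CCAAT and its reverse complement ATTGG.
Fasn, chr11:120824548-120824797, minus strand: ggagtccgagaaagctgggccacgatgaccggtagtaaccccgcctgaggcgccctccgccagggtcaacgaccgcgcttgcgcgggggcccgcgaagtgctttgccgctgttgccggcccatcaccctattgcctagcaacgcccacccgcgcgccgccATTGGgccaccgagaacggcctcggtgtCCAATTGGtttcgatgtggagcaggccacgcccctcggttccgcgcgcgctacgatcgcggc
Elovl6, chr3:129532136-129532354, plus strand: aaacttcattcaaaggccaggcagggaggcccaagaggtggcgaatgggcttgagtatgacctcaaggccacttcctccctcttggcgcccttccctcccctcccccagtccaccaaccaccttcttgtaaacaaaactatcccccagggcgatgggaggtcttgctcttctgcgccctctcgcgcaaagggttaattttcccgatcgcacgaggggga
Acly, chr11:100528001-100528250, minus strand: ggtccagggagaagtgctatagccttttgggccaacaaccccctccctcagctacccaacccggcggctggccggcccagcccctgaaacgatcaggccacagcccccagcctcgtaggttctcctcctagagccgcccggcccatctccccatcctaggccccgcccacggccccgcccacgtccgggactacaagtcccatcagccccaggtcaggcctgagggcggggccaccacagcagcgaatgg
Thrsp, first match, chr7:97417615-97417639, minus strand: aaacgctgggATTGGctcaaaacag
Thrsp, second match, chr7:97417588-97417612, minus strand: ctgtgttgctCCAATggttgggctt
The Fasn window held 3 matches, 2 of which overlap, and the Thrsp window held 2, at 79 to 75 and 52 to 48 bases before the RefSeq start. Only 25 bases around each Thrsp match are printed, because 180 bases of that window lie inside the longer gene of GENCODE M21. Both printed Thrsp stretches lie wholly in an annotated exon inside that gene, so they precede the RefSeq start only. The Elovl6 stretch ends where the GENCODE gene begins, and 98 of its 219 bases lie in an annotated exon of another gene. Neither the Elovl6 nor the Acly window held a match, while 33.8% of the 32851 mouse windows of 250 bases did. Exact matches were also sought for the E-box CACGTG, found in 6.02% of windows, and the sterol response element TCACNCCAC, found in 1.05% on either strand. The windows of these members held neither, and sites that depart from these letters were not searched.

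Per transcript length, Scd1 was the most abundant member and Acaca the least. Scd1 averaged 481 ± 193 TPM (counts scaled for transcript length and library size, SD over 12 libraries), followed by Srebf1 at 54.6 ± 6.93, Fasn at 50.3 ± 13.6, Acly at 46.7 ± 11.3, Me1 at 35 ± 6.53, Dgat2 at 32.8 ± 11.1 and Elovl6 at 32 ± 28 TPM. Thrsp averaged 6.45 ± 3.59, Acss2 6.36 ± 1.28 and Acaca 3.97 ± 0.65 TPM. The step below Scd1 exceeded these spreads. Srebf1, Fasn and Acly differed from each other, in this order, by less than the SD of either neighbour, and so did Me1 and Dgat2, Dgat2 and Elovl6, and Thrsp and Acss2. The steps between Acly and Me1 and between Acss2 and Acaca exceeded the SD of either gene, and that between Elovl6 and Thrsp was within the SD of Elovl6 but beyond that of Thrsp. The genes differed more in how much they varied: the highest library exceeded the lowest in CPM by 25.6 times for Elovl6, 4.93 times for Thrsp and 4.5 times for Scd1, but by 1.55 times for Srebf1.

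**Figure D1:**
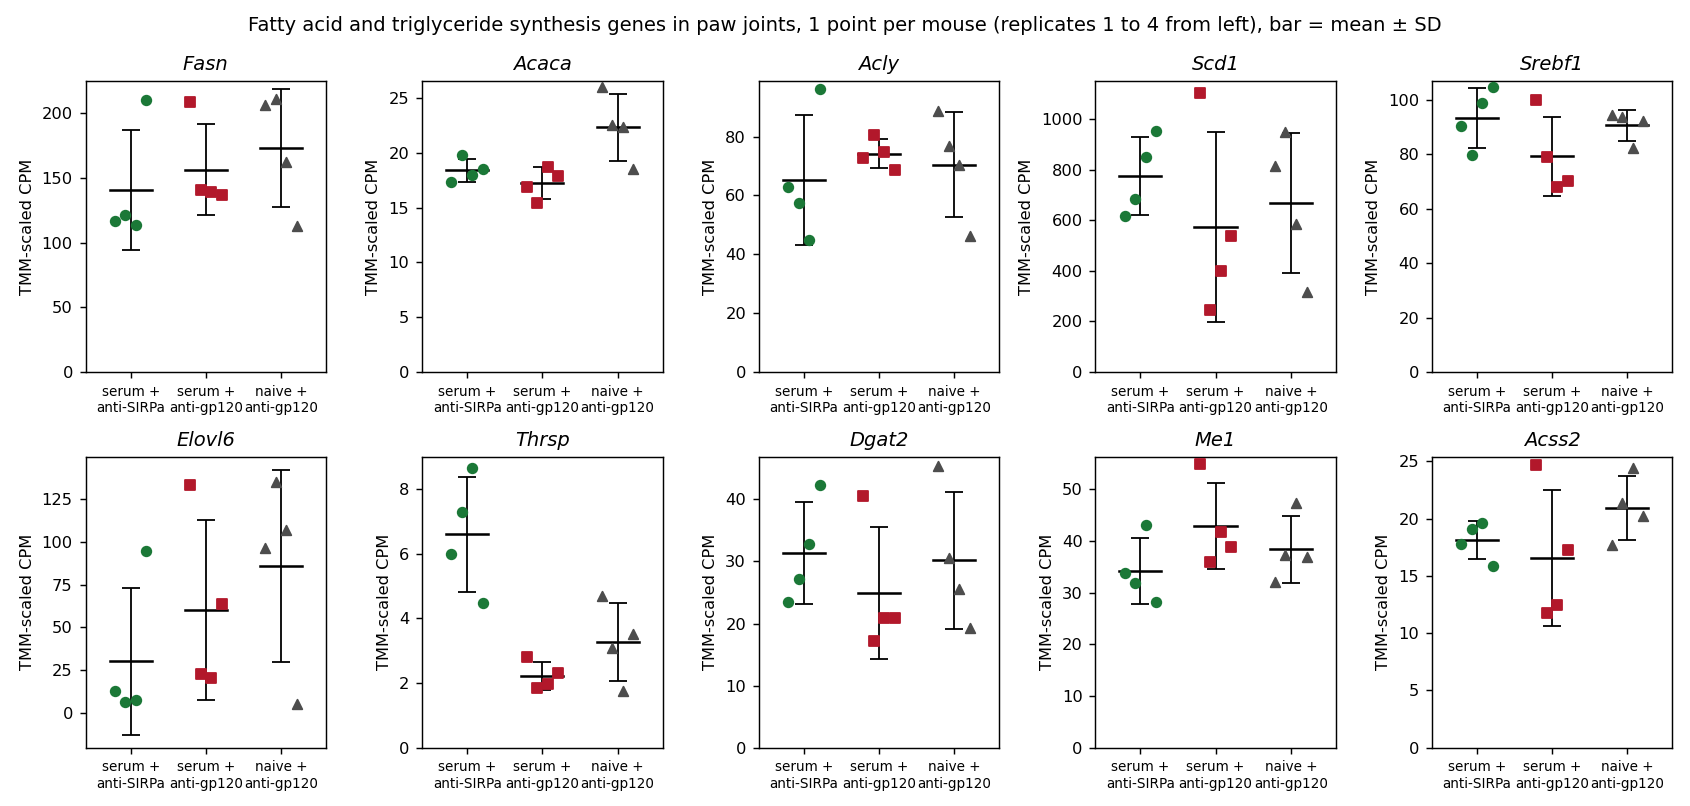
TMM-scaled CPM of the 10 members in each of 12 mice (linear axes, 1 point per mouse, replicates 1 to 4 from left, line and bar = mean ± SD, n = 4). Thrsp is the only panel in which the 4 anti-SIRPa mice (4.47 to 8.66 CPM) lie above the 4 control-antibody mice (1.84 to 2.81 CPM). Elovl6 spans 6.57 to 94.6 CPM within the anti-SIRPa group and 5.29 to 135 CPM within the naive group.

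The comparison of anti-SIRPa with the control antibody asks what the agonist changed in arthritic joints. Thrsp rose and no other member passed the test. Of the 10 members 1 was called higher and 0 lower, beside 3.29% of all tested genes called in either direction and 1.59% called higher and 1.7% lower (edgeR quasi-likelihood test, Benjamini-Hochberg adjusted p under 0.05 over all tested genes). The members' median log2 fold change was 0.11, with 6 above and 4 below 0, and that of all tested genes was -0.03. Member fold changes ran from -0.98 to 1.55 on the log2 scale.

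Thrsp (ENSMUSG00000035686, chr7:97412938-97417730, minus strand, protein-coding) encodes Spot 14, a small nuclear and cytosolic protein induced by thyroid hormone and feeding that promotes lipogenesis in liver, fat and mammary gland. Thrsp stood at 5.99, 7.28, 8.66 and 4.47 CPM in anti-SIRPa mice 1 to 4, against 2.81, 1.84, 1.96 and 2.31 CPM in control-antibody mice 1 to 4 and 4.69, 3.09, 1.76 and 3.53 CPM in naive mice 1 to 4. All 4 anti-SIRPa values lay above all 4 control-antibody values, whereas the lowest anti-SIRPa mouse lay below the highest naive mouse. Beside this, 10% of tested genes did not overlap between the 2 arthritis groups, 5.18% with anti-SIRPa higher and 4.82% with anti-SIRPa lower. The counts behind these values were 79 to 120 reads per library in anti-SIRPa, 14 to 34 in control-antibody and 25 to 77 in naive mice, and Thrsp had the fewest reads of the 10 members over all 12 libraries. Group means were 6.6 ± 1.79 CPM with anti-SIRPa and 2.23 ± 0.435 CPM with the control antibody (SD, n = 4 each). The log2 fold change was 1.55 ± 0.31 (SE; 95% interval 0.89 to 2.22), a 2.94-fold higher level (edgeR adjusted p = 0.0289).

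The call of Thrsp depended on the setting. Over 23 alternative settings the log2 fold change stayed between 1.21 and 1.74, and the gene was called in 12 of them, with adjusted p between 0.000262 (DESeq2) and 0.576 (edgeR with the adipocyte list as covariate). Leaving out 1 mouse ended the call for control-antibody mouse 2, 3 or 4 (edgeR adjusted p = 0.0757, 0.0912 and 0.0714) and for anti-SIRPa mouse 1, 2 or 3 (edgeR adjusted p = 0.0952, 0.0922 and 0.0615). Without control-antibody mouse 1, the library that stood apart, it was 1.69 ± 0.34 (edgeR adjusted p = 0.00301).

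**Figure D2:**
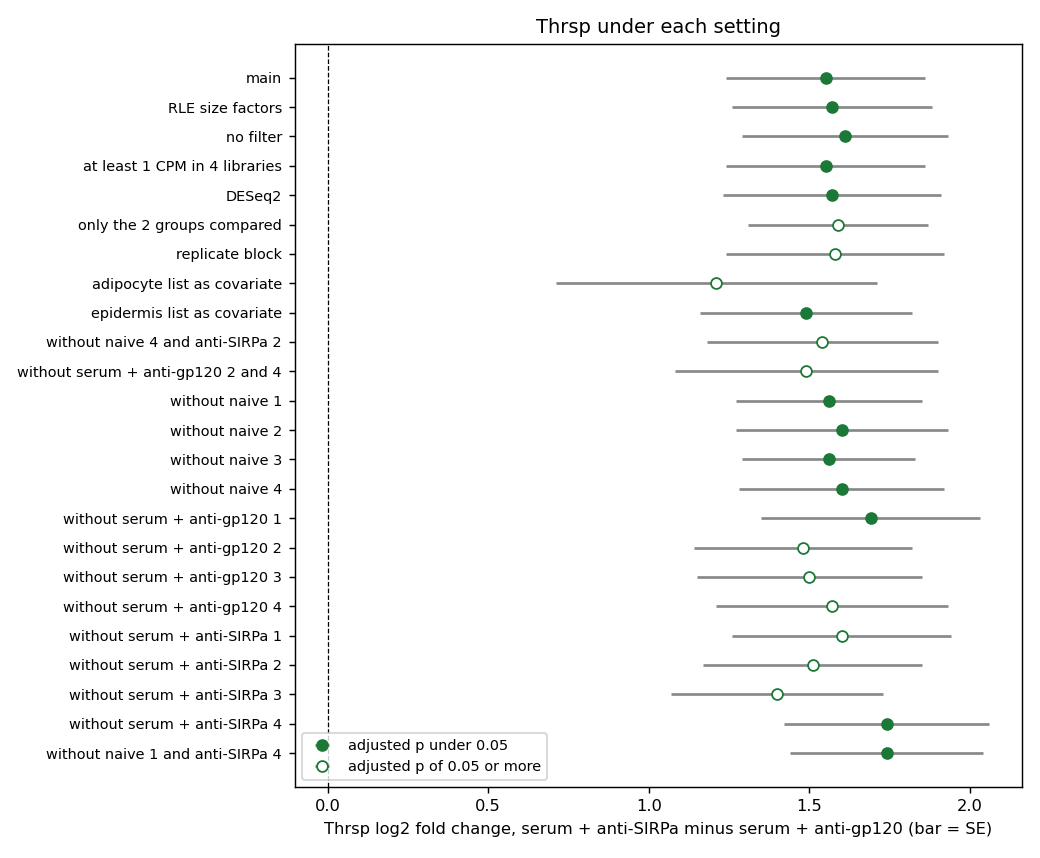
Log2 fold change of Thrsp, anti-SIRPa minus control-antibody arthritis, as reported (top row) and under 23 alternatives (x axis log2, bars = SE, filled points adjusted p under 0.05). All points lie between 1.21 and 1.74, and 11 of the 23 alternatives are open.

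Markers of fat cells were higher in the same samples. Of 17 measured adipocyte markers, edgeR called 5 higher with anti-SIRPa than with the control antibody and 0 lower. Of all tested genes 1.59% were called higher and 1.7% lower. The median log2 fold change of the markers was 0.86, with 15 above 0 and Plin4 (-0.15) and Cebpa (-0.02) below. The 5 called were Adipoq (adiponectin), Plin1 (perilipin of the lipid droplet), Pparg, Lpl and Cd36, of which Lpl and Cd36 are also made in muscle. Adipoq stood at 23.1, 26.7, 30.1 and 33.9 CPM in anti-SIRPa mice 1 to 4, against 8.68, 3.94, 17.4 and 10.8 CPM in control-antibody mice 1 to 4. Naive mice 1 to 4 had 15.8, 10.9, 14.8 and 11 CPM of Adipoq. Plin1 averaged 44.8 ± 7.95 CPM with anti-SIRPa, 16.6 ± 8.95 CPM with the control antibody and 21.9 ± 5.3 CPM in naive mice. Between the arthritis groups Adipoq had a log2 fold change of 1.46 ± 0.32 (edgeR adjusted p = 0.0375). Plin1 rose by 1.43 ± 0.30 on the same scale (edgeR adjusted p = 0.0344). These calls were kept in 6 of 23 alternatives for Adipoq and in 9 for Plin1, with adjusted p of 0.000262 to 0.811 and 0.00014 to 0.739. In anti-SIRPa arthritis against naive edgeR called 0 of the 17 markers, with a median of 0.42 and 13 above 0. There 7 had an unadjusted p under 0.05, beside 4.05% of all genes. In control-antibody arthritis against naive 2 were called lower, beside 4.45% of all genes, with a median of -0.31. The 18 adipocyte markers summed to 3815 to 6210 CPM with anti-SIRPa, 2445 to 6152 CPM with the control antibody and 4767 to 6259 CPM in naive mice. In this sum the arthritis groups overlapped through control-antibody mouse 1 at 6152 CPM, since the other 3 reached 3612 CPM at most. It is a sum in which Car3 and other genes that muscle also makes weigh most. By mean log2 CPM of the 17 measured markers the arthritis groups did not overlap. They stood at 5.21 to 5.66 with anti-SIRPa and 4.07 to 5.05 with the control antibody, and naive mice at 4.75 to 5.17. Without control-antibody mouse 1, edgeR called 8 of 17 markers higher with anti-SIRPa, beside 23% of all genes called in either direction. With the mean of the adipocyte list as a covariate, Thrsp was higher by 1.21 ± 0.50 and was not called (edgeR adjusted p = 0.576), in a fit that called 0 of 16674 genes between the arthritis groups. The brown fat marker Ucp1 had 5 reads over the 4 anti-SIRPa libraries, 6 over the control-antibody libraries and 3 over the naive libraries.

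Srebf1 (ENSMUSG00000020538, chr11:60199089-60222581, minus strand), the gene of the lipogenic SREBP transcription factor, had 90.4, 79.7, 99 and 105 CPM in anti-SIRPa mice, against 100, 78.9, 68.1 and 70.3 CPM in control-antibody mice and 94.6, 93.9, 82.4 and 92.4 CPM in naive mice. Control-antibody mice 3 and 4 were the lowest of the 12 libraries, and mouse 1 of that group was among the highest. Its log2 difference was 0.24 ± 0.13 with anti-SIRPa against the control antibody (95% interval -0.05 to 0.52; edgeR adjusted p = 0.29) and -0.19 ± 0.13 with the control antibody against naive (edgeR adjusted p = 0.364). Without control-antibody mouse 1 both were called, at 0.38 ± 0.11 (edgeR adjusted p = 0.0266) and -0.34 ± 0.11 (edgeR adjusted p = 0.0397). That fit tested 17271 genes and called 23% of them between the arthritis groups and 27.2% against naive, so that calls were more frequent throughout. Its exons overlap those of Rai1 on the other strand, and the strand setting of the counting is not given in the sources used here.

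Acly, Acss2 and Me1, the members that supply acetyl-CoA and NADPH, were called by neither edgeR nor DESeq2 in any comparison with all 12 libraries. None of them had an unadjusted edgeR p under 0.05. The shares of all tested genes with such a p were 24.4% between the arthritis groups, 28.2% in control-antibody arthritis against naive and 4.05% in anti-SIRPa arthritis against naive. Acly (ENSMUSG00000020917, chr11:100476353-100528000, minus strand), ATP citrate lyase, had 62.9, 57.3, 44.7 and 96.2 CPM in anti-SIRPa mice, against 72.8, 80.4, 74.8 and 68.7 CPM in control-antibody mice and 88.5, 76.7, 70.2 and 46.1 CPM in naive mice. Anti-SIRPa mouse 4 was the highest and anti-SIRPa mouse 3 the lowest of all 12, and naive mouse 4 was nearly as low. Acss2 (ENSMUSG00000027605, chr2:155517948-155585724, plus strand), which activates acetate, had 17.8, 19.1, 19.6 and 15.9 CPM in anti-SIRPa mice, against 24.7, 11.8, 12.5 and 17.3 CPM in control-antibody mice and 17.7, 21.4, 24.4 and 20.2 CPM in naive mice. The control-antibody group held both the highest and the lowest Acss2 values. Without mouse 1 of that group Acss2 was called lower than in naive mice (-0.60 ± 0.17, edgeR adjusted p = 0.0151), against -0.33 ± 0.21 with it (edgeR adjusted p = 0.312). The fit without that mouse called 27.2% of all genes in this comparison, against 10.3% with it. Me1 (ENSMUSG00000032418, chr9:86581371-86695953, minus strand), the cytosolic malic enzyme that makes NADPH, had 33.7, 31.9, 43.1 and 28.1 CPM in anti-SIRPa mice, against 54.9, 35.9, 41.8 and 38.8 CPM in control-antibody mice and 32, 37.2, 47.4 and 36.9 CPM in naive mice. All 3 groups of Me1 overlapped, and the means of the arthritis groups, 34.2 ± 6.38 and 42.8 ± 8.41 CPM, lay more than 1 SD apart. Its log2 difference between the arthritis groups was -0.33 ± 0.17 (95% interval -0.69 to 0.04; edgeR adjusted p = 0.25). Exons of Acss2 overlap those of Gss, Ggt7 and an antisense gene on the other strand.

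Of the chain-building enzymes, Acaca (ENSMUSG00000020532, chr11:84129672-84401651, plus strand), acetyl-CoA carboxylase, was the steadier. It had 17.3, 19.8, 18 and 18.5 CPM in anti-SIRPa mice, against 16.9, 15.4, 18.7 and 17.9 CPM in control-antibody mice and 26, 22.5, 22.3 and 18.5 CPM in naive mice. The naive group reached into the range of the arthritis groups only through naive mouse 4, and the arthritis groups overlapped each other. Fasn (ENSMUSG00000025153, chr11:120805846-120824547, minus strand), fatty acid synthase, had 117, 121, 114 and 210 CPM in anti-SIRPa mice, against 209, 141, 139 and 137 CPM in control-antibody mice and 206, 211, 162 and 113 CPM in naive mice. In each arthritis group 1 mouse was far above the other 3, and naive mouse 4 was the lowest of all. The log2 difference of Fasn with anti-SIRPa against the control antibody was -0.15 ± 0.24 (95% interval -0.67 to 0.37; edgeR adjusted p = 0.738).

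Elovl6 (ENSMUSG00000041220, chr3:129532355-129638495, plus strand), which elongates palmitate to stearate, had the widest range. Its values were 12.6, 6.57, 7.58 and 94.6 CPM in anti-SIRPa mice, against 133, 22.9, 20.6 and 63.5 CPM in control-antibody mice and 96.2, 135, 107 and 5.29 CPM in naive mice. Anti-SIRPa mice 1 to 3 and naive mouse 4 formed the low end, and the other 3 naive mice, control-antibody mouse 1 and anti-SIRPa mouse 4 the high end, so each group spanned much of the range. The log2 difference with anti-SIRPa against the control antibody was -0.98 ± 1.14 (95% interval -3.55 to 1.59; edgeR adjusted p = 0.644). Without anti-SIRPa mouse 4 it was -2.72 ± 1.08 and still not called (edgeR adjusted p = 0.165). Scd1 (ENSMUSG00000037071, chr19:44394455-44407879, minus strand), the desaturase that makes oleate, had 616, 685, 849 and 955 CPM in anti-SIRPa mice, against 1106, 246, 399 and 540 CPM in control-antibody mice and 817, 948, 587 and 318 CPM in naive mice. Apart from control-antibody mouse 1, the highest of all 12, the control-antibody group lay below every anti-SIRPa mouse. The log2 difference of Scd1 between the arthritis groups was 0.44 ± 0.43 (edgeR adjusted p = 0.564). Without that mouse it was 0.98 ± 0.37 (edgeR adjusted p = 0.0816), in a fit that called 23% of all genes between these groups. Scd2, Scd3 and Scd4 are close relatives with which reads could be shared, and Scd2 averaged 165 ± 38.8 CPM with anti-SIRPa, 145 ± 23.4 CPM with the control antibody and 167 ± 25.1 CPM in naive mice.

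Dgat2 (ENSMUSG00000030747, chr7:99153658-99182719, minus strand), which adds the last fatty acid to form triglyceride, followed the same mice as Scd1. It had 23.4, 27.1, 32.8 and 42.3 CPM in anti-SIRPa mice, against 40.6, 17.2, 20.9 and 20.9 CPM in control-antibody mice and 45.3, 30.5, 25.6 and 19.3 CPM in naive mice. Leaving out control-antibody mouse 1 again put that group below every anti-SIRPa mouse, with a log2 difference of 0.68 ± 0.27 that was not called (edgeR adjusted p = 0.093), against 0.33 ± 0.31 with it (edgeR adjusted p = 0.542). The fit without this mouse called 23% of all genes between the arthritis groups. How many genes separate the groups in that smaller set was not counted.

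**Figure D3:**
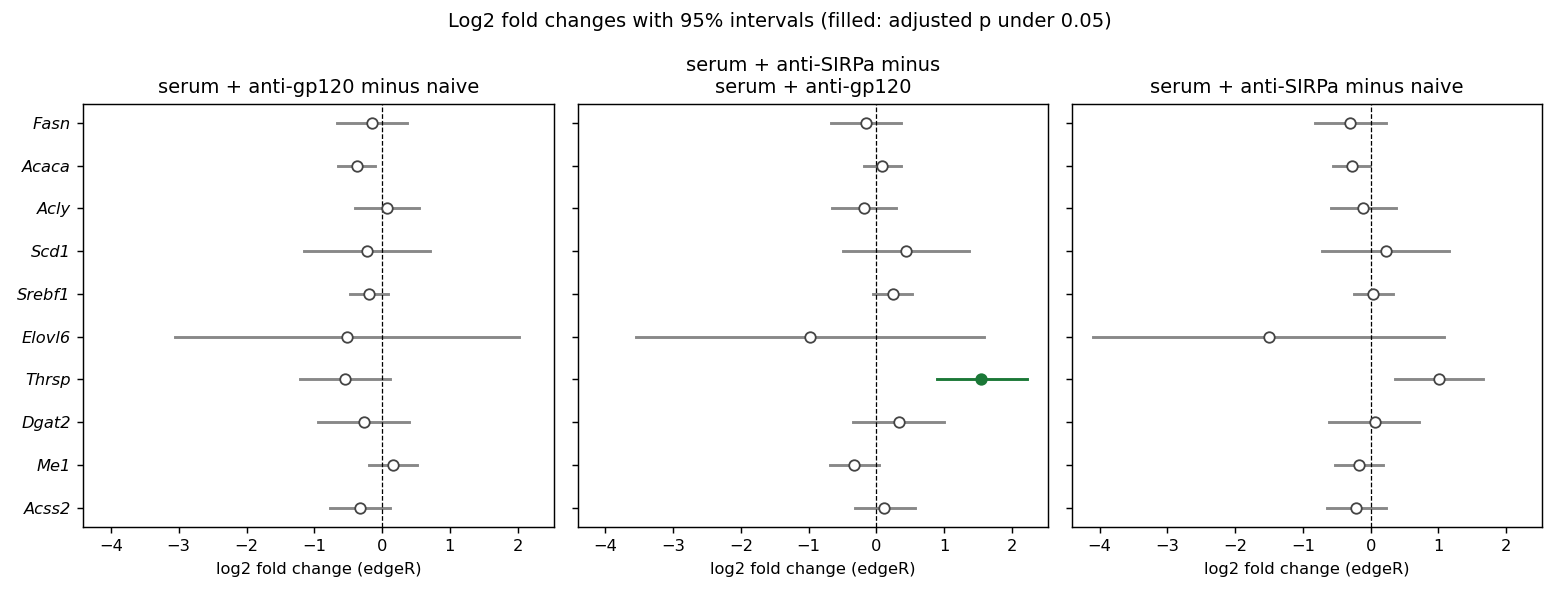
Log2 fold changes of the members with 95% intervals in the 3 comparisons (x axis log2, points = edgeR estimates, filled where the adjusted p is under 0.05). Thrsp in the middle panel, at 1.55 with an interval of 0.89 to 2.22, is the only filled point, and Elovl6 has the widest intervals in all 3 panels.

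Control-antibody arthritis against naive asks what the serum changed without the agonist. None of the 10 members was called, beside 10.3% of all tested genes (edgeR). At an unadjusted p under 0.05 there was 1 member, Acaca, beside 28.2% of tested genes, and DESeq2 called Acaca alone. Acaca averaged 17.2 ± 1.45 CPM in control-antibody arthritis and 22.3 ± 3.04 CPM in naive mice, a log2 difference of -0.37 ± 0.13 (95% interval -0.65 to -0.10; edgeR adjusted p = 0.0732). DESeq2 gave -0.40 ± 0.14 (DESeq2 adjusted p = 0.0273), with a background of 17.4% of genes called. No member separated these groups without overlap, beside 12.5% of tested genes, 6.02% higher and 6.47% lower in control-antibody arthritis. The members lay at a median of -0.25 with 8 of 10 below 0, while all tested genes lay at a median of 0.03. Fold changes ran from -0.54 ± 0.31 for Thrsp to 0.16 ± 0.17 for Me1. Without control-antibody mouse 1 the median was -0.49, with Elovl6 at -1.27 and Scd1 at -0.77, and 2 members were called lower, Srebf1 and Acss2, beside 27.2% of genes. Without naive mouse 1 the median was -0.15.

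Anti-SIRPa arthritis against naive asks how far treated joints differed from undiseased ones. No member was called, and no gene of the 16674 was called either (background 0%, edgeR). At an unadjusted p under 0.05 there were 2 members, Thrsp and Acaca, beside 4.05% of tested genes, and DESeq2 called 0 members and 20 genes. Thrsp averaged 6.6 ± 1.79 CPM in anti-SIRPa arthritis and 3.27 ± 1.21 CPM in naive mice, a log2 difference of 1.01 ± 0.30 (95% interval 0.36 to 1.66; edgeR adjusted p = 1). Acaca differed by -0.28 ± 0.13 (95% interval -0.55 to -0.01; edgeR adjusted p = 1). No member separated the groups without overlap, beside 4.89% of tested genes, 3.04% higher and 1.85% lower in anti-SIRPa arthritis. The members' median was -0.14, with 4 above and 6 below 0, beside -0.01 for all tested genes. Since all 3 comparisons share samples, their values are given side by side and not as separate support.

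Across the 12 libraries some members moved together and others did not. Over their 45 pairs the Pearson correlation of log2 CPM had a median of 0.36 and ran from -0.47 (Thrsp and Elovl6) to 0.91 (Fasn and Elovl6), with 10 pairs below 0 and 5 above 0.7. The 5 were Fasn with Elovl6, Fasn with Acly at 0.79, Elovl6 with Acly at 0.78, Scd1 with Dgat2 at 0.89, and Srebf1 with Dgat2 at 0.72. After subtracting group means 9 pairs were above 0.7, and Fasn, Elovl6, Scd1 and Dgat2 correlated with each other at 0.73 to 0.91. All of these share libraries and their tissue content, and they are descriptions without a test.

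**Figure D4:**
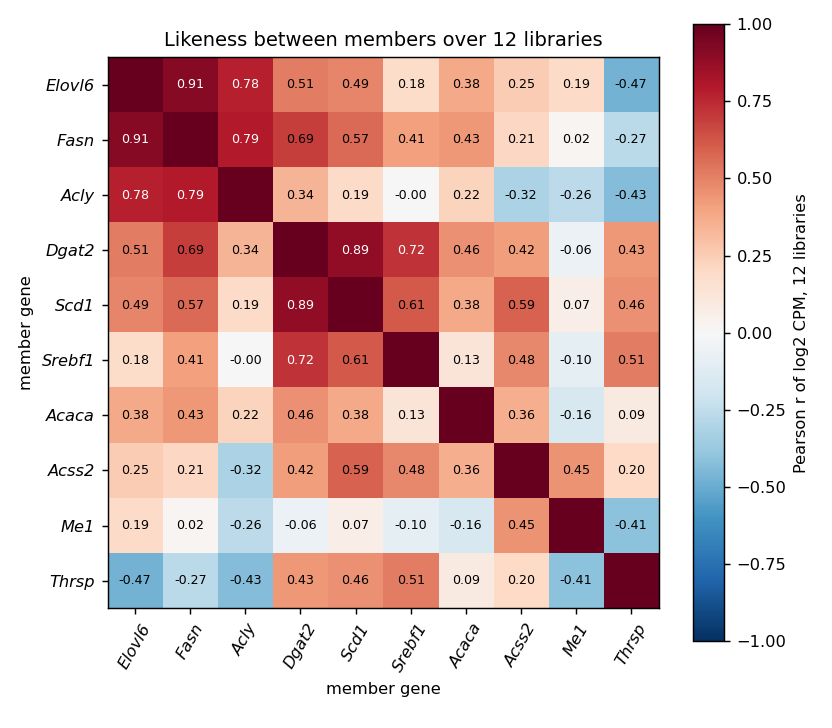
Pearson correlation of log2 CPM between members over 12 libraries (both axes list the 10 members, color and number = r). Elovl6, Fasn and Acly form a block of 0.78 to 0.91, Scd1 and Dgat2 stand at 0.89, and Thrsp is negative with Elovl6 (-0.47), Acly (-0.43), Me1 (-0.41) and Fasn (-0.27).

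Fasn, Elovl6 and Acly followed the skin content of the libraries. Correlations of the 10 members with 4 marker lists (sebocyte, epidermis, adipocyte and skeletal muscle; mean log2 CPM over the measured genes of a list) gave 40 relations, adjusted together by Benjamini-Hochberg, with p from 100000 permutations. The sebocyte list was drawn up from genes of the oil-producing gland cells of skin, and some of its genes, such as Plin2 and Soat1, are also made elsewhere. None of the 10 members is on these lists. Elovl6 followed this list with r = 0.99 and rho = 0.97 (permutation p = 1e-05, the smallest these permutations can give; adjusted p = 0.0002 for r and 0.0004 for rho). Its r was 0.98 without naive mouse 4 and anti-SIRPa mouse 2, the libraries farthest from the median, and 0.99 after subtracting group means. With the epidermis list Elovl6 gave r = 0.91 and rho = 0.88 (permutation adjusted p = 0.0002 and 0.0024). Fasn gave r = 0.92 with sebocyte and 0.85 with epidermis markers (permutation adjusted p = 0.00093 and 0.0015; rho = 0.94 for both, adjusted p = 0.0004), and 0.94 and 0.95 without the same 2 libraries. Acly gave r = 0.81 and rho = 0.88 with the epidermis list (permutation adjusted p = 0.013 and 0.0024), 0.77 without those 2 libraries and 0.80 after subtracting group means. In the control-antibody group, however, Acly spanned only 68.7 to 80.4 CPM, and mouse 1, highest in skin markers, had 72.8 CPM, below mice 2 and 3. Scd1 and Dgat2 gave r = 0.54 and 0.58 with the sebocyte list (permutation adjusted p = 0.18 and 0.16), and 0.80 and 0.79 after subtracting group means.

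The 11 sebocyte markers summed to 68.6, 54.4, 70.4 and 272 CPM in anti-SIRPa mice, against 295, 120, 115 and 166 CPM in control-antibody mice and 254, 246, 170 and 41.5 CPM in naive mice. These are the same mice as the high and low ends of Elovl6. edgeR called 0 of the 10 tested sebocyte markers in each of the 3 comparisons. At an unadjusted p under 0.05 there were 2 between the arthritis groups (24.4% of all genes). There were 0 in control-antibody arthritis against naive (28.2%) and 0 in anti-SIRPa arthritis against naive (4.05%). DESeq2 called 1 lower between the arthritis groups, beside 11.3% of all genes called. Of the 15 epidermis markers edgeR and DESeq2 called 0 in each comparison, with 0 at an unadjusted p under 0.05. The median log2 difference of the epidermis list was 0.90 between the arthritis groups and -1.30 in control-antibody arthritis against naive. The positive sign rests on anti-SIRPa mouse 4: the other 3 anti-SIRPa mice, at 49.8 to 352 CPM in sum, lay below all 4 control-antibody mice, at 498 to 5216 CPM, and the group medians were 342 and 1559 CPM. With the epidermis list as a covariate, the log2 difference of Elovl6 between the arthritis groups was -0.70 ± 0.45 (edgeR adjusted p = 0.355), with a smaller SE than the 1.14 of the fit without it. Among all other genes, chosen for likeness after the values of Elovl6 were seen, Far2, a fatty acyl-CoA reductase of wax synthesis on the sebocyte list, was most like Elovl6 (r = 0.99 over 12 libraries), and Cyp2j12, Sec14l4, Hsd3b6 and Acpp were among those next in order at 0.98.

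**Figure D5:**
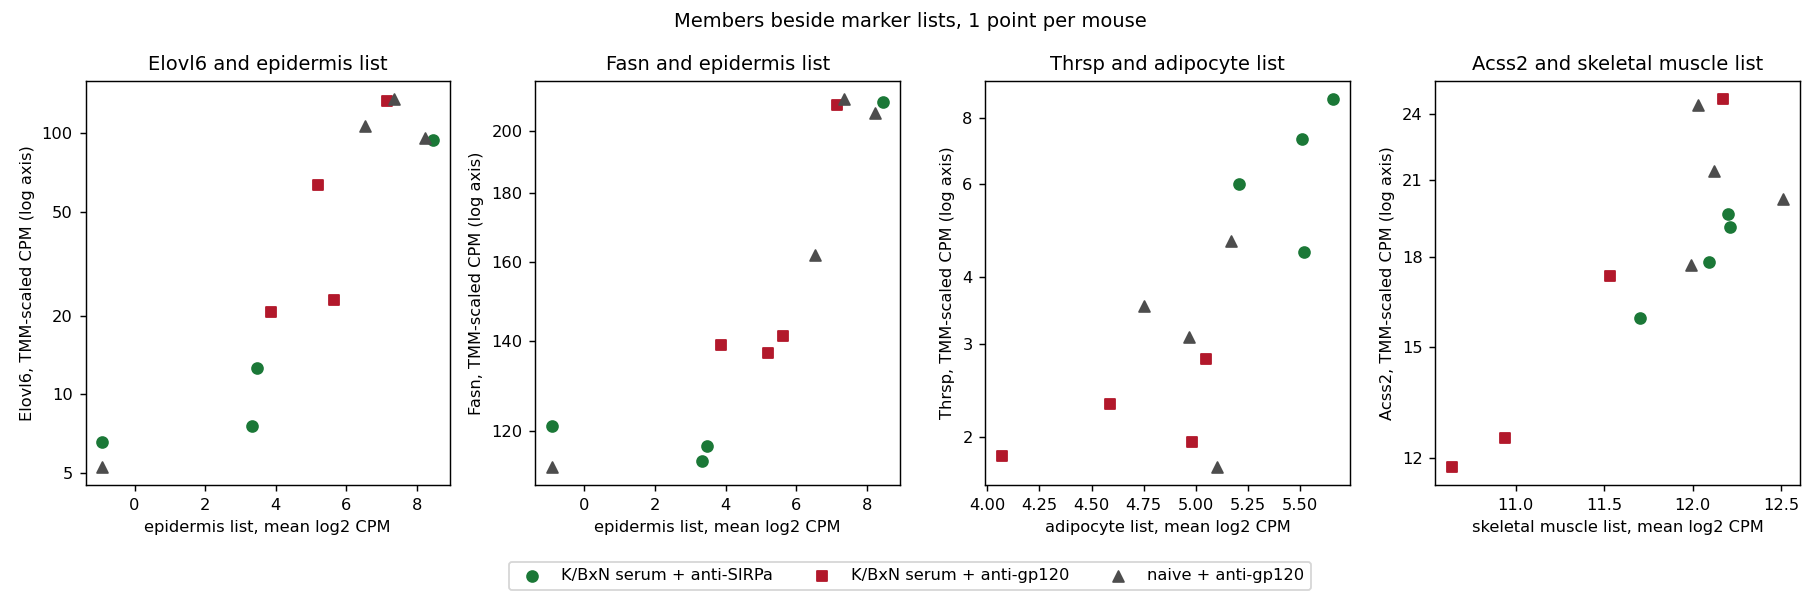
TMM-scaled CPM of Elovl6, Fasn, Thrsp and Acss2 (log axes) against the mean log2 CPM of a marker list, 1 point per mouse. The high Elovl6 and Fasn values of each group belong to mice with high epidermis markers (r = 0.91 and 0.85), Thrsp climbs with the adipocyte list mainly between groups (r = 0.75), and the low Acss2 values belong to control-antibody mice 2 and 3, which are lowest in muscle markers.

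Thrsp and Scd1 were also related to fat cell markers. Thrsp gave r = 0.75 and rho = 0.73 with the adipocyte list (permutation adjusted p = 0.021 and 0.048), 0.63 without control-antibody mouse 2 and anti-SIRPa mouse 3, and 0.25 after subtracting group means. Scd1 gave r = 0.73 and rho = 0.61 with this list (permutation adjusted p = 0.033 and 0.14), 0.50 without the same 2 libraries and 0.73 after subtracting group means. Acss2 followed the muscle list with r = 0.86 and rho = 0.76 (permutation adjusted p = 0.0064 and 0.042). That relation rested in part on control-antibody mice 2 and 3, since r was 0.50 without them, and it was 0.87 after subtracting group means. The genes most like Thrsp over the 12 libraries, chosen after its values were seen, were Ngp, a granule protein of neutrophil precursors, at r = 0.90, Cog5 at 0.88, and Ighm, the immunoglobulin mu chain, and Polr2b at 0.87. Liver markers were near 0: the 8 hepatocyte markers summed to 1.74 to 7.47 CPM in the 12 libraries, and Alb (albumin) stood between 0 and 1.44 CPM.

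The genes most like the members as a whole, by correlation with the mean of their standardised log2 CPM over 12 libraries, were Secisbp2l, Fam213a and Adh1 at 0.95, Epb41l4b at 0.94, F3, Lrrc1 and Ahnak2 at 0.93, and Cidea, a lipid droplet protein on the brown fat list, at 0.92.

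Of the lists of related genes, edgeR called 1 of 10 lipogenic regulators and 1 of 16 elongation and desaturation genes in each comparison with control-antibody arthritis. Beside this, 3.29% of all genes were called between the arthritis groups and 10.3% against naive. Among the regulators, 3 had an unadjusted p under 0.05 between the arthritis groups (24.4% of all genes) and 7 in control-antibody arthritis against naive (28.2%), and DESeq2 called 2 (11.3%) and 5 (17.4%). Insig1, which retains the SREBP complex in the endoplasmic reticulum and is itself a sterol-regulated gene, differed in both comparisons with control-antibody arthritis. It stood at 21.4, 20.7, 15.5 and 22.8 CPM in anti-SIRPa mice, against 13.3, 11.8, 13.5 and 11.5 CPM in control-antibody mice and 22.3, 22.3, 18.5 and 17.9 CPM in naive mice. Control-antibody mice lay below all others, mouse 1 included. Of all tested genes, 5.18% separated the arthritis groups with anti-SIRPa higher. Lower in control-antibody arthritis than in naive mice without overlap were 6.47%. Both separations use the same control-antibody mice. Insig1 rose by 0.68 ± 0.15 with anti-SIRPa against the control antibody (edgeR adjusted p = 0.0333) and fell by 0.69 ± 0.15 on the log2 scale in control-antibody arthritis against naive (edgeR adjusted p = 0.0153). The first call was kept in 12 of 23 alternatives (adjusted p 0.000728 to 0.566) and the second in 20 of 23 (0.000361 to 0.157). Leaving out control-antibody mouse 2, 3 or 4 ended the first (edgeR adjusted p = 0.0833, 0.0832 and 0.0809), as did anti-SIRPa mouse 1 or 2 (edgeR adjusted p = 0.104 and 0.0982). The fit without anti-SIRPa mouse 1 called 0 genes of the whole table between the arthritis groups.

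Mid1ip1, the paralog of Thrsp, lay the other way in its values: 44.8 ± 8.67 CPM with anti-SIRPa, 66.1 ± 17.2 CPM with the control antibody and 43.7 ± 5.87 CPM in naive mice. With all 12 libraries edgeR called Mid1ip1 in neither comparison. Its log2 difference was -0.56 ± 0.18 between the arthritis groups (edgeR adjusted p = 0.0893) and 0.60 ± 0.18 against naive (edgeR adjusted p = 0.0531). Srebf2, the sterol-directed SREBP gene, differed by 0.41 ± 0.15 between the arthritis groups (edgeR adjusted p = 0.116), and the liver X receptor gene Nr1h3 by 0.77 ± 0.25 in control-antibody arthritis against naive (edgeR adjusted p = 0.063). In edgeR, Mid1ip1 and Nr1h3 were the 2 of 10 regulators above 0 in control-antibody arthritis against naive. DESeq2 called 2 regulators higher and 3 lower there, beside 17.4% of all genes. Without control-antibody mouse 1, 6 of the 10 regulators were called against naive, 2 higher and 4 lower, beside 27.2% of genes.

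Of 16 measured genes of elongation and desaturation, Fads3, a desaturase of the fatty acid desaturase cluster, was called. Fads3 averaged 11.9 ± 1.09 CPM with anti-SIRPa, 24.1 ± 8.76 CPM with the control antibody and 10.1 ± 1.68 CPM in naive mice. It fell by 1.02 ± 0.23 on the log2 scale with anti-SIRPa against the control antibody (edgeR adjusted p = 0.0378) and rose by 1.26 ± 0.24 in control-antibody arthritis against naive (edgeR adjusted p = 0.0103). The fall was called in only 6 of 23 alternatives (adjusted p 0.000446 to 0.588), and leaving out any mouse but control-antibody mouse 1 ended it (edgeR adjusted p 0.0508 to 0.122). Of these fits, the one without anti-SIRPa mouse 1 called 0 genes between the arthritis groups. The rise was called in 21 of 23 (adjusted p 6.3e-05 to 0.117).

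In triglyceride assembly, edgeR called 0 of 19 measured genes in each comparison. At an unadjusted p under 0.05 there were 6 between the arthritis groups (24.4% of all genes), 5 in control-antibody arthritis against naive (28.2%) and 1 in anti-SIRPa arthritis against naive (4.05%). DESeq2 called 3 (11.3%), 4 (17.4%) and 0 (0.12%). Between the arthritis groups 15 of the 19 lay below 0, with a median of -0.21. Among them Lpin2, a phosphatidate phosphatase, averaged 15.7 ± 1.84 CPM with anti-SIRPa and 24.5 ± 6.4 CPM with the control antibody (log2 difference -0.64 ± 0.17, edgeR adjusted p = 0.0583). Dgat1, which catalyses the same last step as Dgat2, averaged 9.08 ± 1.4 CPM with anti-SIRPa and 12.7 ± 1.73 CPM with the control antibody (-0.48 ± 0.17, edgeR adjusted p = 0.12). Gpd1, which makes glycerol phosphate, differed by -0.59 ± 0.22 in control-antibody arthritis against naive (edgeR adjusted p = 0.0971). Without control-antibody mouse 1, 5 of 19 were called in each comparison that uses this group, beside 23% of all genes between the arthritis groups and 27.2% against naive.

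Of 13 genes of carbon and NADPH supply and 20 of sterol synthesis, edgeR and DESeq2 called none in any of the 3 comparisons. Unadjusted p under 0.05 was reached by 1, 1 and 0 of the supply genes and by 1, 0 and 2 of the sterol genes between the arthritis groups, in control-antibody arthritis against naive and in anti-SIRPa arthritis against naive. The shares of all tested genes were 24.4%, 28.2% and 4.05% in the same order. Leaving out control-antibody mouse 1, 1 supply gene was called in each comparison with that group, and 2 sterol genes between the arthritis groups and 1 against naive. That fit called 23% of all genes between the arthritis groups and 27.2% against naive. Pgd, of the pentose phosphate pathway, had the smallest p of the supply list against naive (0.49 ± 0.17, edgeR adjusted p = 0.086), and Sc5d that of the sterol list between the arthritis groups (0.32 ± 0.13, edgeR adjusted p = 0.153). Markers of other cells moved beside these genes. In control-antibody arthritis against naive, edgeR called 9 of 14 macrophage markers higher and 3 of 14 muscle markers lower. Of all genes 5.87% were called higher and 4.45% lower. Between the arthritis groups edgeR called 0 macrophage and 0 muscle markers, with 7 and 3 at an unadjusted p under 0.05 (24.4% of all genes). DESeq2 called 4 macrophage markers lower and 3 muscle markers higher with anti-SIRPa, beside 11.3% of all genes. With control-antibody mouse 1 left out, edgeR called 11 of 14 macrophage markers lower and 11 of 14 muscle markers higher with anti-SIRPa, beside 23% of all genes. In control-antibody arthritis against naive it called 14 macrophage markers higher and 12 muscle markers lower, beside 27.2% of all genes. That mouse was set apart by its macrophage markers, so their calls without it are not an independent result. The part of these markers in the differences of Insig1 and Fads3 was not tested.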

How the data were processed

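RNA of whole paw joints was sequenced from a stranded total RNA library kit, per the labels' protocols, and the authors deposited raw counts per Ensembl gene for 12 libraries. The build was GRCm38, per the submitters' processing notes. The sources used here give no aligner, counter or strand setting. Identifiers without a symbol held 0.024% of counts.

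Counts were tested in R 4.3.3 with edgeR 4.0.16 (limma 3.58.1): TMM scaling, filterByExpr, robust quasi-likelihood fit of all 12 libraries with 1 coefficient per group, and Benjamini-Hochberg adjustment over 16674 genes at 0.05. The biological coefficient of variation was 0.334. CPM values are TMM-scaled, log2 CPM used a prior count of 2, and TPM used exon unions of GENCODE M21. Alternatives were DESeq2 1.42.0, other scaling and filters, 2 groups alone, a replicate block, marker covariates and left-out libraries. The edgeR script was tested on simulated data. Correlation p-values came from permutations in Python 3.11.15 (numpy 2.4.6, scipy 1.17.1). Promoter windows are RefSeq's.

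Genes named besides the members had the smallest p of their pathway list, were defining or abundant cell type markers, or were the 8 most correlated with the members' mean; genes most like Elovl6 and Thrsp, and Mid1ip1, Scd2 and the marker genes named for their calls, were chosen after their values were seen. The members and lists were chosen with earlier results of these data known.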

Additional observations from a re-analysis of the deposited data

Results flagged for a closer look

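A single mouse lay far from the other 3 of its group in 4 of the 30 combinations of member and group, by Dixon's test at the 95% level, which chance alone passes in about 5% of groups. Fasn reached 210 CPM in anti-SIRPa mouse 4, against 114 to 121 CPM in the other 3 anti-SIRPa mice. Elovl6 reached 94.6 CPM in the same mouse, against 6.57 to 12.6 CPM in the others. The epidermis markers of that mouse summed to 19269 CPM, against 49.8 to 352 CPM in the others, and its sebocyte markers to 272 CPM, against 54.4 to 70.4 CPM. In control-antibody mouse 1, Fasn reached 209 CPM, against 137 to 141 CPM in the other 3 control-antibody mice, and Dgat2 reached 40.6 CPM, against 17.2 to 20.9 CPM. The muscle markers of that mouse summed to 110962 CPM, against 43847 to 72855 CPM in the others, and its macrophage markers to 697 CPM, against 1449 to 1590 CPM. It was also the highest of its group in epidermis markers (5216 CPM, against 498 to 1863 CPM), sebocyte markers (295 CPM, against 115 to 166 CPM) and summed adipocyte markers (6152 CPM, against 2445 to 3612 CPM). Car3, which muscle also makes, gave 5050 CPM of that adipocyte sum. By mean log2 CPM of the adipocyte list mouse 1 stood at 5.05 and mouse 3 at 4.98. Adipoq and Plin1 were lower in mouse 1 (8.68 and 15 CPM) than in mouse 3 (17.4 and 29.6 CPM). The part of these markers in the 4 values was not tested.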

How the results depend on the processing

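Over 690 combinations of member, comparison and alternative, 646 kept direction and side of the threshold, 29 turned direction, 11 lost and 4 gained a call. All members that turned were uncalled, the causes were not tested, and values below are log2 differences (SvC anti-SIRPa against control antibody, CvN control antibody against naive, SvN anti-SIRPa against naive). DESeq2 called 1892 genes SvC, 2905 CvN with 1 member, and 20 SvN, and without a filter 4 genes were called SvN. The 2 groups alone gave 0 genes and 0 members SvC and 435 genes CvN (Insig1 SvN 0.00). The adipocyte covariate gave 0 genes and 0 members SvC and 300 genes CvN. It turned Acaca (-0.15), Scd1 (-0.83), Dgat2 (-0.58) and Acss2 (-0.29) SvC, Fasn (0.03), Scd1 (0.24), Elovl6 (0.23), Dgat2 (0.09) and Adipoq (0.03) CvN, and Scd1 (-0.58), Srebf1 (-0.03) and Dgat2 (-0.49) SvN. The epidermis covariate turned Fasn SvC (0.01), and Acly (0.04) and Insig1 (0.04) SvN. Without naive mouse 4 and anti-SIRPa mouse 2, 0 genes and 0 members were called SvC and 166 genes CvN, with Acly CvN at -0.09 and Dgat2 SvN at -0.02. Without control-antibody mice 2 and 4, 0 genes and 0 members were called SvC and 1 gene CvN, with Acss2 SvC at -0.01, Scd1 at 0.16, Dgat2 at 0.01 and Plin1 at 0.00 CvN, and Insig1 SvN at 0.00. Without naive mouse 1 and anti-SIRPa mouse 4, chosen after seeing the data, 45 genes were called SvC and 670 CvN.

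Leaving out 1 mouse gave 0 to 3976 genes and 0 to 2 members SvC, 412 to 4694 genes and 0 to 2 members CvN, and 0 genes and members SvN; both highest counts came without control-antibody mouse 1. Ranges that crossed 0 were Fasn -0.37 to 0.03 and Acss2 -0.00 to 0.39 SvC, Acly -0.09 to 0.20 and Scd1 -0.77 to 0.03 CvN, and Acly -0.35 to 0.04, Srebf1 -0.02 to 0.11, Dgat2 -0.12 to 0.32 and Insig1 -0.07 to 0.10 SvN.

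Replicate numbers did not pair the mice: deviations of same-numbered mice correlated at -0.80 to 0.21. With a replicate block, 78 genes and 0 members were called SvC (Thrsp 1.58, edgeR adjusted p = 0.065) and 735 genes CvN. Nothing in the labels ties a number to a litter or day. Thrsp had as few as 14 reads in a library.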
